A study of Rattus norvegicus with 23 samples.

Results

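Map2, Gad1 and Bdnf, genes that neurons are known for, were followed in adult rat hippocampal neural stem cells that were placed on a stiff or a soft substrate and given a medium for mixed differentiation. They were chosen by name, with earlier results of these data known, as the rows ENSRNOG00000011841 (Map2), ENSRNOG00000000007 (Gad1) and ENSRNOG00000047466 (Bdnf), 3 of the 32883 genes listed. The rule also asked for 10 or more counts in 2 or more libraries, which Map2 met in 23 libraries and Gad1 in 13. Bdnf met it in 0 libraries, so 2 of the 3 genes passed. For Bdnf mainly counts are described, and the only tests given come from a fit with no filter on low counts. The count table does not pair identifiers with symbols, and 0 of its 32883 identifiers matched the reference gene table, so the symbols are those of the rule and their pairing was not tested.

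The cells were wild type and came from adult female animals. All of them received DMEM-F12 with N2 supplement, retinoic acid at 1 uM and fetal bovine serum at 1%, including those labelled 0 h. The groups were stiff at 0, 12, 24 and 36 h and soft at 0, 12, 24 and 36 h, with 3 libraries each except soft at 12 h, which had 2. The stiffness of either substrate as a pressure is not given in the sources used here, and round 2 of soft at 12 h was not analysed. Library titles carry a round number from 1 to 3, used here as the replicate number. No label says that rounds are separate cultures or animals, so the p-values measure the spread between these libraries, which may be technical.

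Neurons that arise from neural stem cells extend axons and dendrites, take on a transmitter and come to depend on growth factors. Map2 encodes a microtubule-associated protein that is concentrated in dendrites and in the cell body and is widely used as a neuronal marker. Gad1 encodes a glutamate decarboxylase, the enzyme that makes the inhibitory transmitter GABA and marks GABAergic neurons. Bdnf encodes brain-derived neurotrophic factor, a secreted ligand of the receptor TrkB that promotes neuronal survival and synapse growth, and its transcription starts at several alternative promoters. The series set out to find genes whose level in neural stem cells depends on stiffness.

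The promoter table, from RefSeq on the rat assembly GRCr8, lists 1 start for Map2, 1 for Gad1 and 6 for Bdnf, and the counts themselves were made on rn6. The 250 bases before a start are printed for each gene because the starts of these neuronal genes differ in base composition and in the motifs they hold. The 4 motifs searched, on both strands, were the E-boxes CAGCTG and CAGATG, which proneural factors can bind, the core TGACG of the cAMP response element, and the nuclear receptor core AGGTCA, and capitals mark a match. The Bdnf window is the 1 of 6 that holds TGACG, here read on the opposite strand as CGTCA. With 6 windows Bdnf had more room for a match than Map2 and Gad1, with 1 each.
Map2, chr9:75346440-75346689, plus strand: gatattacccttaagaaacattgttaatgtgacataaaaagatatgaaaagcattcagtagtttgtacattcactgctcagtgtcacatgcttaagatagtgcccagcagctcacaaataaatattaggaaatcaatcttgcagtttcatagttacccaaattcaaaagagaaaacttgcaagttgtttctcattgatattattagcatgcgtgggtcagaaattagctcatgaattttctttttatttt
Gad1, chr3:75777202-75777451, plus strand: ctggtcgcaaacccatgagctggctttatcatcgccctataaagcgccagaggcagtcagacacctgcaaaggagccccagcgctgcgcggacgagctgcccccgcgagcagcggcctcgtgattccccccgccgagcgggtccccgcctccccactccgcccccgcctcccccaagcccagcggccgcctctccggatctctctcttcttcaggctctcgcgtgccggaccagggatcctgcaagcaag
Bdnf, chr3:116637608-116637857, plus strand: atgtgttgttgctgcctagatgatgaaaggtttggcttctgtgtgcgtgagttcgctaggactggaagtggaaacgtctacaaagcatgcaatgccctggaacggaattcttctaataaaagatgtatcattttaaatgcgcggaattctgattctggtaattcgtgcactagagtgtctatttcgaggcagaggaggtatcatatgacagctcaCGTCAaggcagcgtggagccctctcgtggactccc

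The Map2 window was 32% G or C and the Gad1 window 68.4%, where the median of all 33469 windows was 51.2%. Neither window held any of the 4 motifs. TGACG stood in 18.2% of all windows, AGGTCA in 14.1%, CAGATG in 14% and CAGCTG in 12%. Of the other Bdnf windows, an overlapping pair held CAGCTG and 1 of that pair also AGGTCA. These matches describe letters in a window and say nothing of binding in these cells.

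Levels are in CPM, a gene's count relative to its library's total after scaling by the TMM method, and differences are log2 fold changes from edgeR's quasi-likelihood test. Calls were made at a p under 0.05 after Benjamini-Hochberg adjustment over the 11857 genes tested. Totals ran from 2462360 to 6811157 counts per library. The 3 stiff 12 h libraries, at 2462360 to 4803755, were all below the 2 soft ones, at 5428086 and 6519349, while at the other times the totals of the substrates overlapped.

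Map2 rose during differentiation on both substrates, and its average rise between 12 and 24 h passed the test. On stiff its mean was higher again at 36 h. It was counted 940 to 3566 times per library, and within groups its counts varied more than counting error alone gives (chi-square per degree of freedom 18.1, where 1 is counting error). All 12 libraries of 24 and 36 h, from 443 to 616 CPM with a median of 510 CPM, lay above all 11 libraries of 0 and 12 h, from 337 to 428 CPM with a median of 371 CPM. In bulk RNA, more cells that express Map2 and more Map2 RNA per cell cannot be told apart.

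At 0 h the stiff libraries of rounds 1, 2 and 3 had 368, 367 and 406 CPM of Map2 and the soft ones 411, 337 and 353 CPM. At 12 h the stiff libraries had 368, 389 and 376 CPM and the soft libraries of rounds 1 and 3 had 428 and 371 CPM. The substrates overlapped at both times. At 24 h the stiff libraries had 498, 469 and 536 CPM and the soft ones 590, 445 and 481 CPM, again overlapping. At 36 h the stiff libraries had 592, 616 and 613 CPM and the soft ones 522, 443 and 451 CPM, and here every stiff library was above every soft one.

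**Figure D1:**
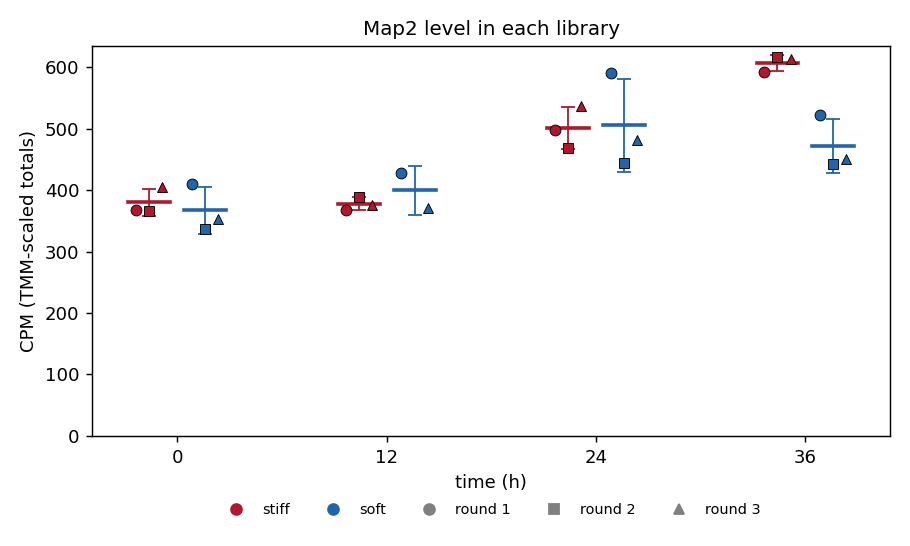
Map2 level in CPM (vertical axis, from 0) against time in hours for each library, stiff in red to the left of soft in blue at each time, with marker shapes for rounds, horizontal lines for group means and bars for 1 SD. The 24 and 36 h libraries lie at 443 CPM or more and those of 0 and 12 h at 428 CPM or less, and the 3 stiff libraries at 36 h (592 to 616 CPM) lie above the 3 soft ones (443 to 522 CPM).

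On stiff, Map2 averaged 380 ± 22.1 CPM at 0 h, 378 ± 10.5 CPM at 12 h, 501 ± 33.9 CPM at 24 h and 607 ± 13 CPM at 36 h (SD, n = 3 each). The fitted log2 change from 0 h was -0.01 (SE 0.095) by 12 h, with an edgeR adjusted p of 0.968. By 24 h it was 0.40 (SE 0.093), a 1.32-fold rise with an edgeR adjusted p of 0.000558. By 36 h it was 0.68 (SE 0.094), a 1.6-fold rise with an interval of 1.4 to 1.82 and an edgeR adjusted p of 2.02e-07.

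Changes from 0 h were common, so these calls are read against the background. On stiff, 21.5% of all genes tested were called by 12 h, 51.4% by 24 h and 57.5% by 36 h. The size of the Map2 change by 36 h exceeded that of 58.1% of the genes tested, close to the middle of them.

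On soft, Map2 averaged 367 ± 38.8 CPM at 0 h (SD, n = 3), 399.8 ± 40.2 CPM at 12 h (SD, n = 2), 505 ± 75.6 CPM at 24 h and 472 ± 43.5 CPM at 36 h (SD, n = 3 each). The log2 change from 0 h was 0.12 (SE 0.1) by 12 h, with an edgeR adjusted p of 0.408. By 24 h Map2 had risen by 0.46 (SE 0.094), or 1.38-fold, with an edgeR adjusted p of 0.000114. By 36 h the rise was 0.36 (SE 0.094), or 1.29-fold with an interval of 1.13 to 1.47, and the edgeR adjusted p was 0.00148. The shares of all genes called on soft were 29.1%, 49.2% and 54.2% at 12, 24 and 36 h. On soft the size of the Map2 change by 36 h exceeded that of 37.3% of the genes tested.

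Averaged over both substrates, Map2 rose by 0.37 (SE 0.071) between 12 and 24 h, with an edgeR adjusted p of 5.18e-05, a step in which 46.3% of genes were called. The average step from 24 to 36 h was 0.09 (SE 0.066) and did not pass the test (edgeR adjusted p = 0.376, where 19.9% of genes were called). From 0 to 36 h the average rise was 0.52 (SE 0.066, edgeR adjusted p = 2.72e-08). That contrast was added after the levels had been seen, and 67.2% of genes were called in it. Within rounds and substrates, the 36 h library was above the 0 h library of the same round in 6 of 6 courses. This follows from the separation of late from early libraries given above.

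The 36 h difference between substrates was the largest that Map2 showed among the 4 times, and it did not pass the test over all genes. The log2 fold change of stiff over soft was 0.36 (SE 0.094), or 1.29-fold with an interval of 1.13 to 1.47. Its unadjusted p was 0.000494 and its edgeR adjusted p 0.136, at a time when 0.0675% of genes were called. Stiff was higher in 3 of 3 rounds, by 70.1 CPM in round 1, 173 CPM in round 2 and 162 CPM in round 3. That count follows from every stiff library lying above every soft one and adds nothing to it.

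The 36 h call depended on the setting. With no filter on low counts the edgeR adjusted p was 0.0147, but the estimate and its SE hardly moved (0.36, SE 0.089). The lower p thus does not reflect a larger difference. A block for the round in the edgeR fit gave 0.37 with an adjusted p of 0.0291, though no label says what a round shares. DESeq2 gave an adjusted p of 0.0620, and the range over 31 alternatives was 0.0147 to 0.512. The log2 fold change stayed between 0.32 and 0.46 over those alternatives.

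At the earlier times no Map2 difference between substrates passed the test, and the intervals bound its size. Stiff over soft was 1.04-fold at 0 h (interval 0.907 to 1.18, edgeR adjusted p = 1), 0.945-fold at 12 h (0.815 to 1.1, edgeR adjusted p = 0.734) and 0.992-fold at 24 h (0.87 to 1.13, edgeR adjusted p = 1.00). At 12 h 6.6% of genes were called. At 0 and 24 h the share was 0% by edgeR and 0 genes by DESeq2, with 431 and 358 genes at an unadjusted p under 0.05 by edgeR.

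Averaged over the 4 times, stiff over soft was 1.06-fold for Map2 (interval 0.988 to 1.13, edgeR adjusted p = 0.686, where 0.447% of genes were called). A joint test of whether stiff minus soft at any later time departed from its 0 h value gave an unadjusted p of 0.0132 and an edgeR adjusted p of 0.179 for Map2, while 3.31% of genes were called. The difference between substrates is therefore not shown to change with time.

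Between 24 and 36 h the 3 stiff libraries moved to a range above their 24 h range, while on soft the ranges overlapped. The fitted step was 0.28 (SE 0.093) on stiff, with an edgeR adjusted p of 0.0532, and -0.10 (SE 0.094) on soft, with an edgeR adjusted p of 0.602. In these steps 9.89% and 9% of genes were called. The step on stiff minus that on soft was 0.38 (SE 0.132, unadjusted p = 0.0077, edgeR adjusted p = 0.999). For this difference 0% of genes were called by edgeR, with 439 at an unadjusted p under 0.05, and 1 gene by DESeq2. These 3 contrasts, like the average change from 0 to 36 h, were added after the levels had been seen.

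Ordered by mean Map2 level, the groups ran soft 0 h, stiff 12 h, stiff 0 h, soft 12 h, soft 36 h, stiff 24 h, soft 24 h and stiff 36 h. Neighbours overlapped in their library values except at 2 places, between soft 12 h and soft 36 h and between soft 24 h and stiff 36 h. The soft library of round 1 had the most Map2 of its group at 4 of 4 times, whereas the stiff library of round 1 was the highest at 0 of 4 times. With rounds 2 and 3 alone, an alternative chosen after seeing this, stiff minus soft at 36 h was 0.46 with an edgeR adjusted p of 0.047. Round 1 held the highest soft value (522 CPM) and the lowest stiff value (592 CPM) at 36 h. Leaving it out could only widen the difference, so this p does not count as support.

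Gad1 was near the lower limit of what these libraries could quantify, and its means were lower at later times. It had 4 to 30 counts per library, 296 in all, and 10 libraries had fewer than 10. Its coefficient of variation between replicates beyond counting error was 0.257 in the edgeR model, against 0.0828 for Map2 and a median of 0.113 over all genes tested. A library with 4 counts has a 95% Poisson interval of 1.09 to 10.2 counts, and such intervals cover counting error only.

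At 0 h the stiff libraries of rounds 1, 2 and 3 had 16, 30 and 28 Gad1 counts (2.6, 4.68 and 5.35 CPM), and the soft ones had 18, 15 and 5 counts (3.53, 2.44 and 1.21 CPM). At 12 h the stiff libraries had 17, 9 and 10 counts (3.64, 3.73 and 3.39 CPM), and the soft libraries of rounds 1 and 3 had 6 and 21 counts (1.19 and 3.3 CPM). The 12 h stiff values lay close together and all above both soft values, though the upper soft value was only 0.0939 CPM below the stiff library of its round. At 24 h the stiff libraries had 13, 8 and 22 counts (1.97, 1.5 and 3.31 CPM), and the soft ones had 5, 17 and 9 counts (0.997, 2.42 and 2.03 CPM). At 36 h the stiff libraries had 11, 9 and 7 counts (2.76, 1.72 and 1.98 CPM), and the soft ones had 4, 12 and 4 counts (1.18, 1.85 and 1.51 CPM). The substrates overlapped at 0, 24 and 36 h.

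**Figure D2:**
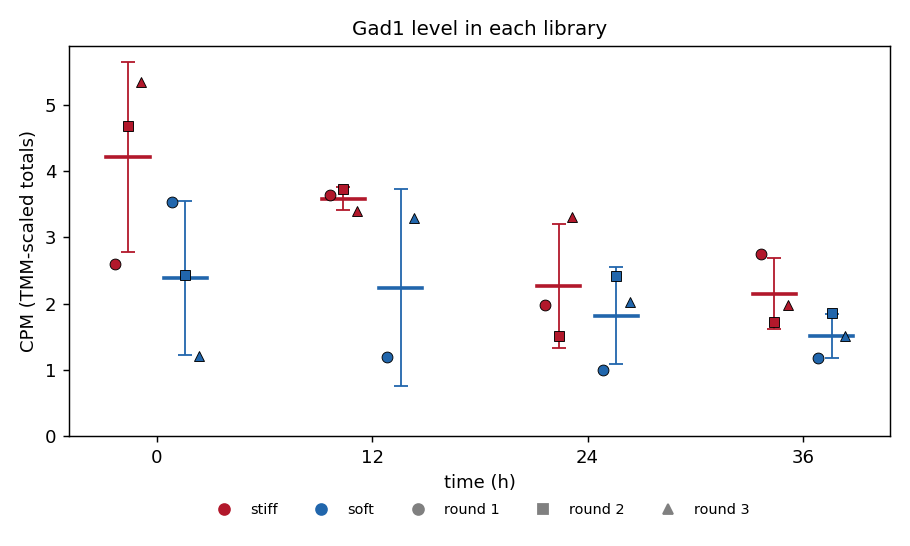
Gad1 level in CPM (vertical axis, from 0) against time in hours for each library, drawn as for Map2: stiff in red to the left of soft in blue, marker shapes for rounds, horizontal lines for group means and bars for 1 SD. Stiff means run from 4.21 CPM at 0 h to 2.15 CPM at 36 h and soft means from 2.39 to 1.51 CPM, with wide overlap between libraries.

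On stiff, Gad1 averaged 4.21 ± 1.44 CPM at 0 h, 3.58 ± 0.173 CPM at 12 h, 2.26 ± 0.937 CPM at 24 h and 2.15 ± 0.541 CPM at 36 h (SD, n = 3 each). The log2 change from 0 h was -0.22 (SE 0.431) by 12 h, -0.86 (SE 0.416) by 24 h and -0.97 (SE 0.447) by 36 h. None of these changes passed, with edgeR adjusted p of 0.771, 0.0821 and 0.0634.

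On soft, Gad1 averaged 2.39 ± 1.16 CPM at 0 h (SD, n = 3), 2.24 ± 1.49 CPM at 12 h (SD, n = 2), 1.82 ± 0.736 CPM at 24 h and 1.51 ± 0.335 CPM at 36 h (SD, n = 3 each). The log2 change from 0 h was -0.08 (SE 0.506) by 12 h, -0.39 (SE 0.47) by 24 h and -0.63 (SE 0.51) by 36 h, with edgeR adjusted p of 0.934, 0.515 and 0.307. The interval at 36 h, 0.315-fold to 1.33-fold, holds both a large fall and no change.

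Averaged over both substrates, a contrast added after the levels had been seen, Gad1 fell by 0.80 on the log2 scale (SE 0.339) between 0 and 36 h. That is 0.575-fold with an interval of 0.356 to 0.928 and an edgeR adjusted p of 0.0381. In this comparison 67.2% of genes were called, and the size of the Gad1 change exceeded that of 66.9% of the genes tested. Of the 6 courses within a round and substrate, 4 were lower at 36 h and 2 higher. The call was lost without any 1 of 8 libraries, namely stiff 0 h rounds 2 and 3, stiff 36 h rounds 2 and 3, soft 0 h rounds 1 and 2, and soft 36 h rounds 1 and 3, where edgeR adjusted p ran from 0.0529 to 0.135. The average steps of -0.48 (SE 0.345) from 12 to 24 h and -0.17 (SE 0.353) from 24 to 36 h did not pass (edgeR adjusted p = 0.27 and 0.794).

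The mean of Gad1 was higher on stiff at all 4 times, and no difference passed the test. The log2 fold change of stiff over soft was 0.78 (SE 0.424) at 0 h and 0.63 (SE 0.511) at 12 h. It was 0.30 (SE 0.463) for 24 h and 0.43 (SE 0.535) for 36 h. The edgeR adjusted p were 1, 0.536, 1.00 and 0.927. Averaged over the times, stiff over soft was 1.45-fold (interval 1.03 to 2.04), with an unadjusted p of 0.0346 and an edgeR adjusted p of 0.5.

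Within rounds, stiff was higher for Gad1 in 8 of 11 pairs of libraries from the same time, and the same count, 8 of 11, was found for Map2. The joint test over the later times gave an edgeR adjusted p of 0.968 for Gad1. Ordered by mean Gad1 level, the groups ran soft 36 h, soft 24 h, stiff 36 h, soft 12 h, stiff 24 h, soft 0 h, stiff 12 h and stiff 0 h, and all neighbours in this order overlapped in their library values.

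**Figure D3:**
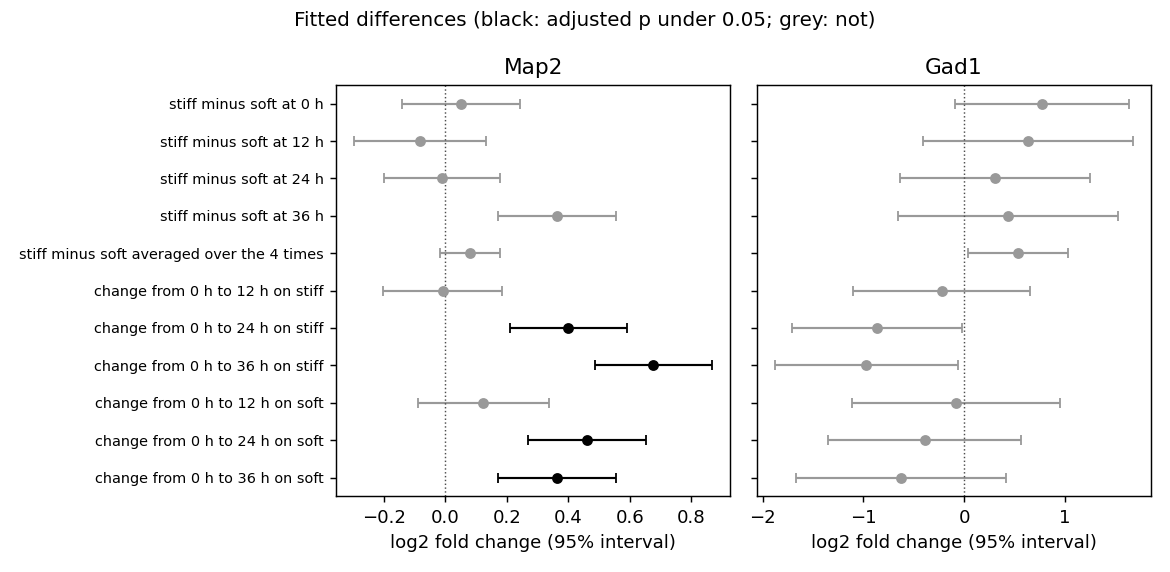
Fitted log2 fold changes with their 95% intervals (horizontal axes, which differ in scale between the panels) for Map2 (left) and Gad1 (right), black where the edgeR adjusted p over all genes was under 0.05 and grey otherwise. The 4 black points are the Map2 changes from 0 h to 24 and 36 h on each substrate, and the Gad1 intervals are several times wider.

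Bdnf was at or near the limit of detection in every group. It had 40 counts in all 23 libraries together, 5 libraries had 0 counts, 12 had 1 or 2 and 6 had 3 to 5. A floor of 3 counts per library corresponds to 0.428 to 1.24 CPM at these depths. The edgeR filter removed it, so no main test exists.

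At 0 h the stiff libraries of rounds 1, 2 and 3 had 2, 3 and 1 Bdnf counts and the soft ones 1, 1 and 3. At 12 h the stiff libraries had 2, 4 and 2 counts and the soft libraries of rounds 1 and 3 had 0 and 2. At 24 h the counts were 4, 2 and 1 on stiff and 5, 1 and 0 on soft. At 36 h they were 0, 1 and 0 on stiff and 1, 4 and 0 on soft. The substrates overlapped at 0, 24 and 36 h. At 12 h the counts touched at 2, and in CPM the stiff values of 0.428, 1.66 and 0.679 lay above the soft values of 0 and 0.314, all of them from 4 counts or fewer and with lower totals on stiff.

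The stiff libraries summed to 6 counts for 0 h, 8 for 12 h, 7 for 24 h and 1 for 36 h. The soft libraries summed to 5 counts for 0 h, 2 for 12 h, 6 for 24 h and 5 for 36 h. Divided by the summed library totals, as CPM without scaling, the 12 h sums came to 0.781 on stiff (95% Poisson interval 0.337 to 1.54) and 0.167 on soft (0.0203 to 0.605). The 36 h sums came to 0.0789 on stiff (0.002 to 0.44) and 0.406 on soft (0.132 to 0.948). These intervals describe each sum and do not test the difference. With no filter on low counts, the log2 fold change of stiff over soft had 95% limits of -0.65 and 4.96 at 12 h (edgeR adjusted p = 0.572) and of -5.06 and 1.15 at 36 h (edgeR adjusted p = 0.947). In that fit Bdnf passed in 0 of 18 contrasts at an edgeR adjusted p (lowest 0.425) and in 0 at an unadjusted p under 0.05.

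**Figure D4:**
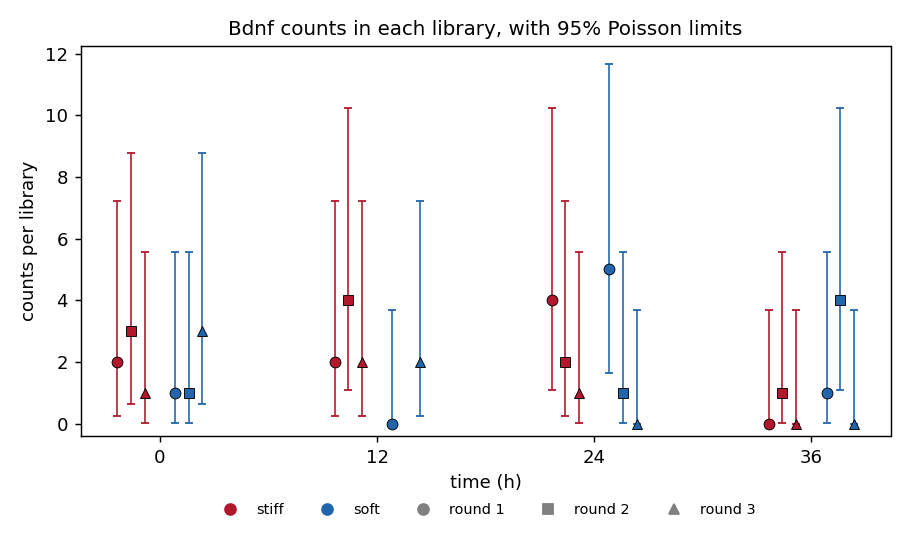
Bdnf counts per library (vertical axis) against time in hours, stiff in red to the left of soft in blue, marker shapes for rounds and bars for the 95% Poisson limits of each count. The counts run from 0 to 5 and the limits overlap throughout.

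The gene whose course was most like that of Map2 was ENSRNOG00000053428, with a Pearson r of 0.99 over the 8 group means of log2 CPM. The points share the libraries and their scaling, and 507 genes (4.28% of those tested) had an r above 0.9 with Map2, so this is a description and no test. ENSRNOG00000053428 rose on stiff to 31 ± 2.05 CPM at 36 h, against 12.4 ± 2.73 CPM at 0 h (SD, n = 3 each), and on soft to 20.7 ± 4.87 CPM against 12 ± 3.26 CPM (SD, n = 3 each). Its edgeR adjusted p for these changes were 2.84e-07 and 0.000782. For Gad1 the most alike was ENSRNOG00000047739, with an r of 0.964 over the same 8 means. That gene stood at 0.654 to 1.9 CPM in its group means, so both members of this pair are sparse. From 0 to 36 h its log2 change was -1.22 (SE 0.65) on stiff and 0.09 (SE 0.65) on soft. Neither passed (edgeR adjusted p = 0.108 and 0.919). On soft the fitted interval ran from -1.23 to 1.41, and the sign of the change depended on the scale. In group means of log2 CPM, the scale of the r, ENSRNOG00000047739 changed by -0.25 on soft. Its mean on soft was 1.08 ± 0.66 CPM at 0 h and 1.06 ± 0.92 CPM at 36 h (SD, n = 3 each). Whether it shared the lower 36 h estimate of Gad1 on soft therefore cannot be decided.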

How the data were processed

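The authors deposited whole-number counts per rat Ensembl gene, not normalized, 1 column for each of 23 libraries. Per the labels' protocols, QuantSeq FWD libraries, which tag the 3' end of polyadenylated transcripts, were made from column-purified total RNA. Build rn6 and the tools HISAT2 2.1.0, HTSeq and FastQC come from the submitters' processing notes. For the annotation, strand setting and duplicate handling the sources used here give nothing. Reads of overlapping or antisense genes may thus be shared. Transcripts that end at the same site are counted together.

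From the counts, edgeR 4.0.16 (R 4.3.3) fitted 8 group means to all 23 libraries with TMM factors, after filterByExpr (minimum count 10, minimum total 15). Of 18319 genes with a count, 11857 were tested with quasi-likelihood F tests and Benjamini-Hochberg adjustment over genes, not over the 18 contrasts. Standard errors and 95% intervals follow from the F statistic. DESeq2 1.42.0 was an alternative. The script was tested on simulated data. Figures used matplotlib 3.10.9.

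Replicate pairs differed beyond sampling noise (chi-square per degree of freedom 2.42 to 9.11 over 22 pairs). The named genes are the 3 members and the gene most like each tested member. Members and lists were chosen with earlier results of these data known. Marker and pathway lists could not be used because identifiers have no names here, so the labelled cell type was not checked.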

Additional observations from a re-analysis of the deposited data

How the results depend on the processing

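The alternatives were RLE factors, unscaled totals, DESeq2, no filter on low counts, a replicate block for the round, 1 draw thinned to the smallest total, the libraries of 1 time alone (for stiff minus soft only), each library left out, and rounds 2 and 3 alone, chosen after seeing the data. Of 544 alternative values for Map2 525 kept their direction and side of the threshold, and of 453 for Gad1 429. Many of these values leave out a library outside the groups compared and could hardly change, so these shares overstate how firm the results are. The Map2 rises from 0 h to 24 and 36 h and from 12 to 24 h stayed called under all of them. Causes of the changes below were not tested.

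Log2 values follow. Map2, stiff minus soft at 36 h, was called with no filter (0.36), the replicate block (0.37, adjusted p = 0.0291) and rounds 2 and 3 alone (0.46). Leaving out round 1 could only widen this difference. The Map2 step from 24 to 36 h on stiff was called with unscaled totals (0.27), the block (0.28), DESeq2 (0.27) and without soft 0 h round 1, soft 24 h round 1 or 2, or soft 36 h round 1. The deviations of same-numbered stiff and soft libraries correlated weakly (r across genes -0.0279 to 0.148, over 0.1 in 4 of 11 pairs), and the labels do not say what a round shares, so the rounds were not taken as pairs. In 10 of 11 pairs the stiff library correlated best with the soft one of its own number, a hint from the data that rounds share something. In the block fit 48 genes were called at 36 h against 8, 94 against 53 averaged over times, and no other call of either gene changed. With no filter these counts were 97 and 147, with 674 against 393 in the joint test, and against 0 each 12 at 0 h, 8 at 24 h and 14 for the stiff step from 24 to 36 h minus the soft one (2 in the block fit). DESeq2 called 26 at 36 h and 89 on average, and thinning left 34 on average. The joint test called 569 genes in the block fit, 534 with DESeq2, 479 with unscaled totals and 326 after thinning.

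Rounds 2 and 3 alone turned Map2, stiff minus soft, to 0.032 at 12 h and 0.12 at 24 h (with no filter 0.000425), and Gad1 on soft to 0.80 at 12 h and 0.24 at 24 h. There the Gad1 change to 36 h was called on stiff (-1.44) and lost on average (-0.788). Thinning, which leaves Gad1 with few counts, gave called Gad1 changes on stiff of -1.73 at 24 h and -1.2 at 36 h, and turned its stiff minus soft at 24 h to -0.52 and its average step from 24 to 36 h to 0.056.

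Leaving out 1 library, Map2 stiff minus soft ran from -0.0077 to 0.14 at 0 h, -0.18 to 0.024 at 12 h and -0.097 to 0.12 at 24 h. Its change to 12 h on stiff ran from -0.0493 to 0.0402, and its step from 24 to 36 h from 0.23 to 0.32 on stiff and -0.18 to 0.026 on soft. Gad1 stiff minus soft at 24 h ran from -0.0765 to 0.612. Its changes from 0 h ran on stiff from -1.26 to -0.67 at 24 h (called without stiff 0 h round 1 or stiff 24 h round 3) and -1.23 to -0.77 at 36 h (called without stiff 0 h round 1), on soft from -1.04 to 0.43 at 12 h, and on average from -0.953 to -0.620 at 36 h. Its average steps ran from -0.73 to 0.017 (12 to 24 h) and -0.312 to 0.0164 (24 to 36 h). A lone soft 12 h library is taken to vary as the rest do. Few counts limit which changes of Gad1 (4 to 30 per library) and Bdnf (0 to 5) could be detected.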
